A study of Homo sapiens with 8 samples.

Results

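The genes described here are 10 that make, convert or release steroid hormones in nervous tissue: TSPO, STAR, CYP11A1, CYP19A1, SRD5A1, AKR1C1, AKR1C3, HSD17B6, HSD17B10 and STS. They were chosen by name, with earlier results of these data known. The probe sets (the groups of probes that measure 1 gene on the array) that the platform annotation pairs with a single gene symbol were used, with the brightest one kept where a gene had several. All 10 were measured, out of 18417 genes in all, and none was removed by a filter on low values. Of the 10 genes, 6 gave a signal clearly above the array background and 4 did not. None passed the test for a change after progesterone, RU-486 or both.

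Steroids that act in the brain are made from cholesterol. The proteins encoded by STAR and TSPO are associated with its transfer into mitochondria, where CYP11A1 cleaves the side chain to give pregnenolone, the parent of all other steroid hormones. Progesterone is then reduced by SRD5A1 and by aldo-keto reductases of the AKR1C family to allopregnanolone, a neurosteroid that acts on GABA-A receptors, or inactivated by AKR1C1. CYP19A1 (aromatase) makes estrogens, HSD17B6 and HSD17B10 can oxidise reduced steroids back, and STS (steroid sulfatase) frees steroids from their sulfate esters.

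U373 cells, an established human astrocytoma line, were measured in 4 groups of 2 Affymetrix whole-transcript arrays, all taken after 12 h. The groups were vehicle, 10 nM progesterone, 1 µM RU-486, and the combination of 10 nM progesterone with 1 µM RU-486. RU-486 (mifepristone) is a synthetic steroid that blocks the progesterone and glucocorticoid receptors and carries an aromatic amine side group that progesterone lacks. Every group, vehicle included, had first been kept in medium with serum stripped of hormones. The sample descriptions and source names write the number of the RU compound differently from the titles and the treatment protocol, which both name RU-486. The titles call the replicates biological but name no separate cultures. The p-values therefore cover only the spread between these samples, and that spread may be technical. In bulk RNA, fewer cells with a transcript and less transcript per cell cannot be told apart.

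Values are log2 expression values, and group values are means ± SD over n = 2 arrays. The array medians ran from 6.93 to 7.02. The progesterone pair agreed least: the SD over all genes of the difference between its replicates was 0.35 log2 units, against 0.16 to 0.18 in the other 3 groups. The AKR1C3 differences for progesterone against vehicle, the combination against progesterone and the average RU-486 effect are therefore also given without each progesterone array. Most other differences that rest on this pair are given with both arrays only. Among 11 markers of astrocytes and glioma, 8 lay above the background defined below, from the filament gene VIM at 13.4 downwards, and AQP4, SLC1A2 and ALDH1L1 did not. That is 72.7% of these markers, where 72.4% of all genes had a mean above that background. Of markers of other cell types, 5 of 7 for neurons, 3 of 6 for oligodendrocytes, 2 of 8 for microglia and leukocytes, 2 of 6 for endothelium, 3 of 6 for epithelium and 3 of 7 for steroid-making glands lay above it. The brightest and dimmest were NEFL at 8.83 and SYT1 at 5.09 for neurons, CNP at 10.8 and MBP at 5.42 for oligodendrocytes, CD68 at 10.6 and PTPRC at 3.44 for microglia and leukocytes, CDH5 at 8.57 and PECAM1 at 4.96 for endothelium, KRT18 at 9.62 and EPCAM at 4.74 for epithelium, and INSL3 at 7.23 and LHCGR at 4.78 for glands. The mean level of the oligodendrocyte markers ran from 6.83 to 7.24 in the progesterone arrays and from 6.81 to 6.999 in the other 6. The mean level of the gland markers ran from 5.74 to 6.05 in the progesterone arrays and from 5.67 to 5.87 in the others. The mean level of the endothelium markers ran from 6.50 to 6.56 in the combination arrays, the group in which TSPO, SRD5A1 and AKR1C3 were highest, and from 6.36 to 6.47 in the other 6. Their part in the results below was not tested.

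The level of each gene was read against 341 genes of olfactory receptors. Such genes are mostly silent away from the olfactory lining, so their readings show what the array gives for a silent gene. Their median was 4.64, their 95th percentile 6.22 and their highest value 6.996. TSPO, SRD5A1, AKR1C1, AKR1C3, HSD17B10 and STS lay above every olfactory receptor gene and above the 95th percentile on all 8 arrays. Over the whole array, 69.2% of genes were above it on all 8, and 72.4% had a mean above it. For AKR1C1 the level is that of the brighter of its 2 probe sets. Its other probe set had a mean of 6.94, inside the olfactory receptor range. STAR, CYP11A1, CYP19A1 and HSD17B6 had mean levels within the olfactory receptor range. STAR exceeded 91.8% of the olfactory receptor genes, CYP11A1 80.6%, CYP19A1 62.5% and HSD17B6 93.0%. STAR, CYP11A1 and CYP19A1 stayed under 6.22 on all 8 arrays, and HSD17B6 passed it on 1. Probe sets differ in how strongly they bind, so the order of these genes is only their place against that background, not an order of transcript amounts.

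**Figure D1:**
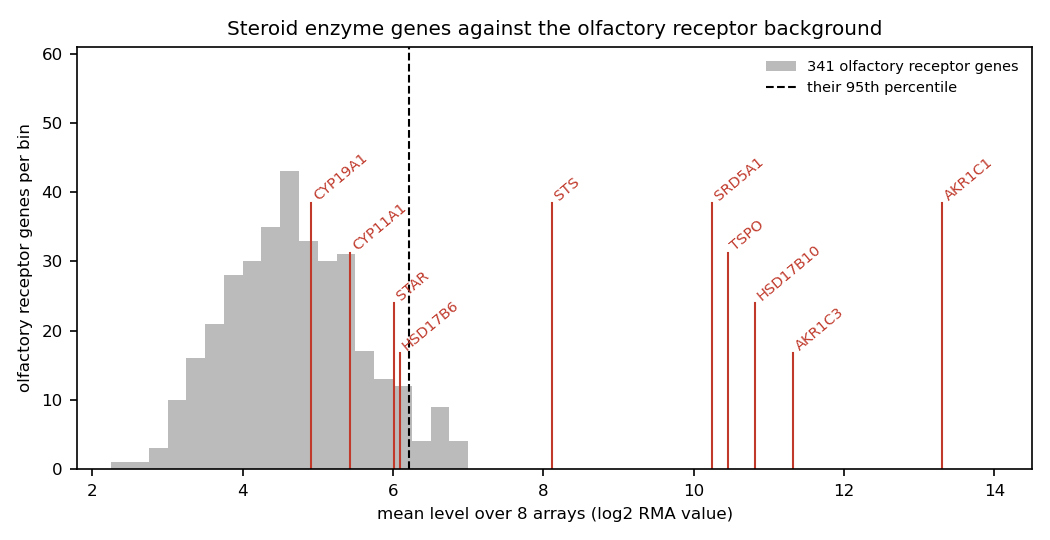
Mean log2 level over 8 arrays (x axis) of the 341 olfactory receptor genes as a histogram (y axis, genes per bin) and of the 10 steroid enzyme genes as labelled red lines, whose heights only separate the labels. CYP19A1, CYP11A1, STAR and HSD17B6 fall left of the dashed 95th percentile at 6.22, and STS, SRD5A1, TSPO, HSD17B10, AKR1C3 and AKR1C1 lie right of every olfactory receptor gene.

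AKR1C1 and AKR1C3 belong to a cluster of related genes on chromosome 10 that includes AKR1C2, and the resemblance reaches into the promoters. The bases before the start of AKR1C1, AKR1C2 and the 2 starts listed for AKR1C3 are shown because these genes all had their lowest values with progesterone alone. SRD5A1, which had the same lowest group, is shown beside them as an unrelated promoter. HSD17B6 also had this lowest group and is not shown. The pattern was noticed after the values were seen, none of these genes passed the test, and the dimmer AKR1C1 probe set lacked it. Each run is 250 bases, written towards the start, from RefSeq promoters of build GRCh38.p14, and capitals mark the CCAAT box (CCAAT on either strand).
AKR1C1, chr10:4963165-4963414, plus strand: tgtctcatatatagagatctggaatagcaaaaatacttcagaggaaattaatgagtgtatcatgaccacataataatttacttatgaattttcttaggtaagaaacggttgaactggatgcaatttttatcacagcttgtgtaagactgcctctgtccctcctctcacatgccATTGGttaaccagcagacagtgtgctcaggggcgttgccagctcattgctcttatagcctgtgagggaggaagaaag
AKR1C2, chr10:5003858-5004107, minus strand: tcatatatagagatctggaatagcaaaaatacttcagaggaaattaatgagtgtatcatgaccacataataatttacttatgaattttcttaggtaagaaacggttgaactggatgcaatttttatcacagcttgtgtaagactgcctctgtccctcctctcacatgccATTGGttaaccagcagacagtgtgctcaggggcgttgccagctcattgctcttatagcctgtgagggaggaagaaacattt
AKR1C3 first start, chr10:5048531-5048780, plus strand: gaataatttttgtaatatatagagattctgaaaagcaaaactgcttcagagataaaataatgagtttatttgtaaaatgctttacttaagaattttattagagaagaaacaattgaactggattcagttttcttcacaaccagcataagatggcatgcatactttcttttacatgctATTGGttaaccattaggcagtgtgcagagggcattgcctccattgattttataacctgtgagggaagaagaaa
AKR1C3 second start, chr10:5094164-5094413, plus strand: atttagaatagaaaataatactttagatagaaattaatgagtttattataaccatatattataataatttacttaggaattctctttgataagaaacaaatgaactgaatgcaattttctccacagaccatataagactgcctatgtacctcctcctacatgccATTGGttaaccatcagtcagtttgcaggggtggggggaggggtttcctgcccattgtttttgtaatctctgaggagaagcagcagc
SRD5A1, chr5:6633190-6633439, plus strand: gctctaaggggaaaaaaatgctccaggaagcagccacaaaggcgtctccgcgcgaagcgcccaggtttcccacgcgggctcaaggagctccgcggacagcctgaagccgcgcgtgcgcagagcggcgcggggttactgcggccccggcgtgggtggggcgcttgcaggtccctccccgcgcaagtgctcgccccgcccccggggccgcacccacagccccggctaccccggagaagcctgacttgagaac
AKR1C1 and AKR1C2 were identical at 245 of 246 aligned positions, or 99.6%. AKR1C1 shared 75% of positions with the first AKR1C3 start and 74.5% with the second. Each AKR1C promoter held 1 CCAAT box, 68 to 81 bases before the start and followed by the same letters TTAACC, and SRD5A1 held none. Over all 35116 promoter records, 32.0% held a CCAAT box in this window. The steroid receptor hexamer TGTTCT, searched on both strands, was in none of the 5 sequences and in 12.4% of all records. The core of the antioxidant response element, TGACNNNGC on either strand, was also in none and in 10.9% of all. The GC content was 32.0% to 40.8% in the AKR1C sequences and 70.8% in SRD5A1. The comparison above is of promoters, and no probe sequences were compared. Probes for related genes can bind one another's transcripts, so the AKR1C values are uncertain as values of single genes. Such binding was not tested.

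TSPO, the mitochondrial translocator protein, was bright. Its log2 values were 10.30 and 10.42 in vehicle, 10.46 and 10.38 in progesterone, 10.46 and 10.46 in RU-486, and 10.59 and 10.50 in the combination. Both combination arrays lay above the other 6, and the progesterone and vehicle arrays overlapped. TSPO stood 0.19 ± 0.08 (SE) above vehicle in the combination (limma adjusted p = 0.385).

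STAR, which moves cholesterol to the inner mitochondrial membrane, read 5.97 and 5.93 in vehicle, 6.11 and 5.79 in progesterone, 6.20 and 6.0005 in RU-486, and 6.08 and 6.01 in the combination. The progesterone replicates differed by 0.32 log2 units and spanned the vehicle values. These are readings in the background range.

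CYP11A1, the side-chain cleavage enzyme, read 5.53 and 5.34 in vehicle, 5.51 and 5.20 in progesterone, 5.46 and 5.45 in RU-486, and 5.42 and 5.54 in the combination, with overlap between all groups. CYP19A1, the aromatase gene, read 4.90 and 4.75 in vehicle, 4.93 and 4.90 in progesterone, 4.94 and 5.05 in RU-486, and 4.88 and 4.98 in the combination. Both RU-486 arrays of CYP19A1 lay above the vehicle arrays, at levels inside the olfactory receptor range.

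SRD5A1, the reductase that turns progesterone into dihydroprogesterone, read 10.20 and 10.22 in vehicle, 10.17 and 10.14 in progesterone, 10.19 and 10.28 in RU-486, and 10.38 and 10.33 in the combination. Its lowest arrays were both progesterone arrays and its highest both combination arrays. The whole range was 0.23 log2 units.

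AKR1C1, which converts progesterone to a less active alcohol, was by its brighter probe set among the brightest genes on the array, above 99.7% of all genes. It read 13.34 and 13.32 in vehicle, 13.23 and 13.17 in progesterone, 13.35 and 13.34 in RU-486, and 13.34 and 13.35 in the combination. Both progesterone arrays lay below the other 6, whose values spanned less than 0.05. Its other probe set did not show this: its group means were 6.96, 6.86, 6.87 and 7.05 in the same order of groups. The mean of that probe set, 6.94, lay inside the olfactory receptor range, whose highest value was 6.996.

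AKR1C3, which forms testosterone and reduces progesterone and prostaglandins, varied most of the 6 genes above background, with an SD of 0.17 over the 8 arrays, larger than that of 74.2% of all genes. It read 11.38 and 11.27 in vehicle, 11.22 and 10.96 in progesterone, 11.37 and 11.40 in RU-486, and 11.52 and 11.44 in the combination. Both progesterone arrays lay below all others and both combination arrays above all others. The group means ran from 11.09 ± 0.19 in progesterone through 11.33 ± 0.08 in vehicle and 11.39 ± 0.02 in RU-486 to 11.48 ± 0.05 in the combination (SD). Vehicle and RU-486, neighbours in that order, overlapped.

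AKR1C2, a close relative that makes allopregnanolone, read 13.63 and 13.65 in vehicle, 13.57 and 13.45 in progesterone, 13.70 and 13.60 in RU-486, and 13.70 and 13.64 in the combination, and its progesterone arrays were also below the other 6. AKR1C4, the liver member of the family, had a mean of 3.66, below the olfactory receptor median.

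HSD17B6, an oxidase of reduced androgens and neurosteroids, read 6.17 and 6.16 in vehicle, 5.93 and 5.88 in progesterone, 6.25 and 6.09 in RU-486, and 6.15 and 6.06 in the combination. Both progesterone arrays lay below the other 6 and close to each other. HSD17B10, a mitochondrial enzyme that oxidises neurosteroids and degrades isoleucine, read 10.75 and 10.79 in vehicle, 10.79 and 10.62 in progesterone, 10.80 and 10.91 in RU-486, and 10.94 and 10.89 in the combination. All 4 of its arrays with RU-486 lay above the 4 without, the closest pair being 10.80 and 10.79.

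STS, the sulfatase, read 8.17 and 8.22 in vehicle, 8.15 and 8.18 in progesterone, 8.10 and 8.09 in RU-486, and 7.90 and 8.15 in the combination. It was the 1 gene of the 10 whose 4 arrays with RU-486 all lay below the 4 without, the closest pair being 8.15 and 8.15, less than 0.01 apart.

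**Figure D2:**
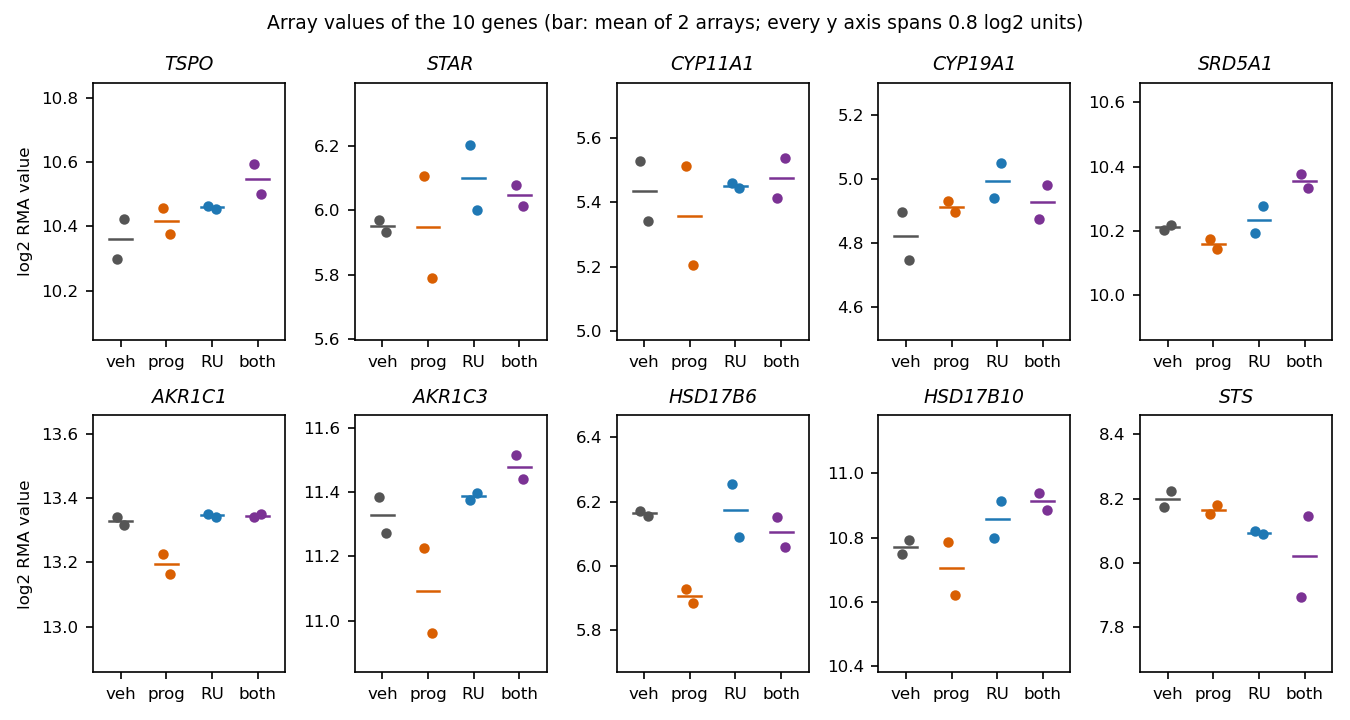
Log2 values (y axis, each panel spanning 0.8 log2 units) of the 10 genes on each of 8 arrays, by group on the x axis (veh, vehicle; prog, progesterone; RU, RU-486; both, combination), with a bar at the mean of 2 arrays. Both progesterone points lie under all others for SRD5A1, AKR1C1, AKR1C3 and HSD17B6, and both combination points over all others for TSPO, SRD5A1 and AKR1C3.

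Progesterone against vehicle asks what the hormone does to the enzymes that make and break it down. Of the 10 genes 8 had a lower mean and 2 a higher one, where 51.2% of all genes were higher, with a median difference of -0.06, where the median over all genes was 0.004. HSD17B6, in the background range, differed by -0.26 ± 0.09 (SE, 95% interval -0.46 to -0.05). AKR1C3 differed by -0.24 ± 0.11 (-0.49 to 0.01) and AKR1C1 by -0.13 ± 0.07 (-0.30 to 0.04). The AKR1C3 difference was -0.37 without progesterone replicate 1 and -0.10 without progesterone replicate 2. None of the 10 genes, and 0% of all genes, passed at an adjusted p under 0.05, the limit used for every call here (limma, Benjamini-Hochberg over all genes). Without progesterone replicate 2 the same fit called 1228 genes, none of them among the 10. The adjusted p was 0.741 for HSD17B6 and AKR1C3 and 0.744 for AKR1C1 in limma. At an unadjusted p under 0.05 lay 1 of the 10, HSD17B6, against 6.13% of all genes. The arrays of 4 genes were wholly lower than vehicle (SRD5A1, AKR1C1, AKR1C3 and HSD17B6) where 15.8% of all genes were, and those of 0 genes wholly higher where 16.3% were.

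The progesterone group also held the lowest arrays of all 8 for the same 4 genes, a pattern noticed after the values were seen. Over all genes, 7.61% had both progesterone arrays below the other 6. AKR1C3 and HSD17B6 kept this under each of 3 other treatments of the values. With quantile normalization SRD5A1 left and STAR and CYP11A1 joined, and with the mean over the probe sets of a gene AKR1C1 left. AKR1C1 and AKR1C3 are related genes and cannot be taken as independent cases. Whether their probes bind one another's transcripts was not tested. The mean was lowest in progesterone for 7 of the 10 genes, compared with 29.5% of all genes. Both combination arrays lay above the other 6 for 3 of the 10, TSPO, SRD5A1 and AKR1C3, where 15.2% of all genes did. No gene of the 10 had another group wholly outside the other 6 arrays. Over all genes, vehicle was wholly lowest in 7.02% and highest in 2.24%, RU-486 lowest in 2.05% and highest in 1.17%, the combination lowest in 6.48% and progesterone highest in 2.07%.

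RU-486 alone, at a dose of 1 µM against the 10 nM of progesterone, gave differences from vehicle within 0.1 log2 units for the 4 genes whose progesterone arrays were lowest. AKR1C3 stood at 0.06 ± 0.11, AKR1C1 at 0.02 ± 0.07, SRD5A1 at 0.02 ± 0.08 and HSD17B6 at 0.0085 ± 0.09 (SE). In all, 9 of the 10 stood above vehicle, where 55.3% of all genes did. Since the doses differ, the 2 steroids were not tested against each other. CYP19A1 at 0.17 ± 0.09 and STAR at 0.15 ± 0.12 had the largest positive differences and are in the background range. None of the 10 genes passed, and 0% of all genes did. At an unadjusted p under 0.05 lay 0 of the 10 and 3.10% of all genes (limma). The arrays of 5 genes were wholly higher (24.0% of all genes) and those of 1, STS, wholly lower (15.7%).

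Both steroids together stood above vehicle for 8 of the 10 genes, where 67.5% of all genes did, with a median of 0.10 beside 0.07 over all genes. TSPO had the largest positive difference, given above, followed by AKR1C3 at 0.15 ± 0.11, SRD5A1 at 0.14 ± 0.08 and HSD17B10 at 0.14 ± 0.09, and STS stood at -0.18 ± 0.10 (SE). The STS difference was -0.05 without combination replicate 1 and -0.30 without combination replicate 2. The AKR1C3 difference was 0.09 without vehicle replicate 2. AKR1C1 stood at 0.02 ± 0.07, less than its SE. None of the 10 genes and 0% of all genes passed, and 0 of the 10 had an unadjusted p under 0.05 against 13.2% of all genes (limma). The arrays of 6 genes were wholly higher, where 42.7% of all genes were, and those of 2 wholly lower, where 18.8% were. The 3 comparisons above share the vehicle arrays.

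The combination set against progesterone by itself gave the widest difference of any of the 10 genes. AKR1C3 was higher by 0.38 ± 0.11 (SE, 95% interval 0.14 to 0.64), or 1.31-fold, without passing (limma adjusted p = 0.271). SRD5A1 was higher by 0.20 ± 0.08, HSD17B10 by 0.21 ± 0.09, HSD17B6 by 0.20 ± 0.09 and AKR1C1 by 0.15 ± 0.07. In all, 9 of the 10 genes were higher, where 56.7% of all genes were, with a median of 0.14 beside 0.03 over all genes, and STS was lower at -0.14 ± 0.10. None passed, as 0% of all genes did, and AKR1C3 and SRD5A1 had an unadjusted p under 0.05, where 14.6% of all genes did (limma). The arrays of 6 genes were wholly higher (28.1% of all genes) and those of 1 wholly lower (12.6%). The higher genes include SRD5A1, AKR1C1, AKR1C3 and HSD17B6, whose lowest arrays were the progesterone pair. This comparison shares that pair with progesterone against vehicle, so these are not independent results. Without progesterone replicate 1, AKR1C3 stood at 0.52 and passed (limma adjusted p = 0.0427), in a fit where 1090 genes, or 5.92%, passed. Without progesterone replicate 2 it stood at 0.25 and did not pass (limma adjusted p = 0.196). Each of these fits leaves 1 progesterone array, which is assumed to vary like the other groups. Without combination replicate 1, STS stood at -0.02, and without combination replicate 2 at -0.27.

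**Figure D3:**
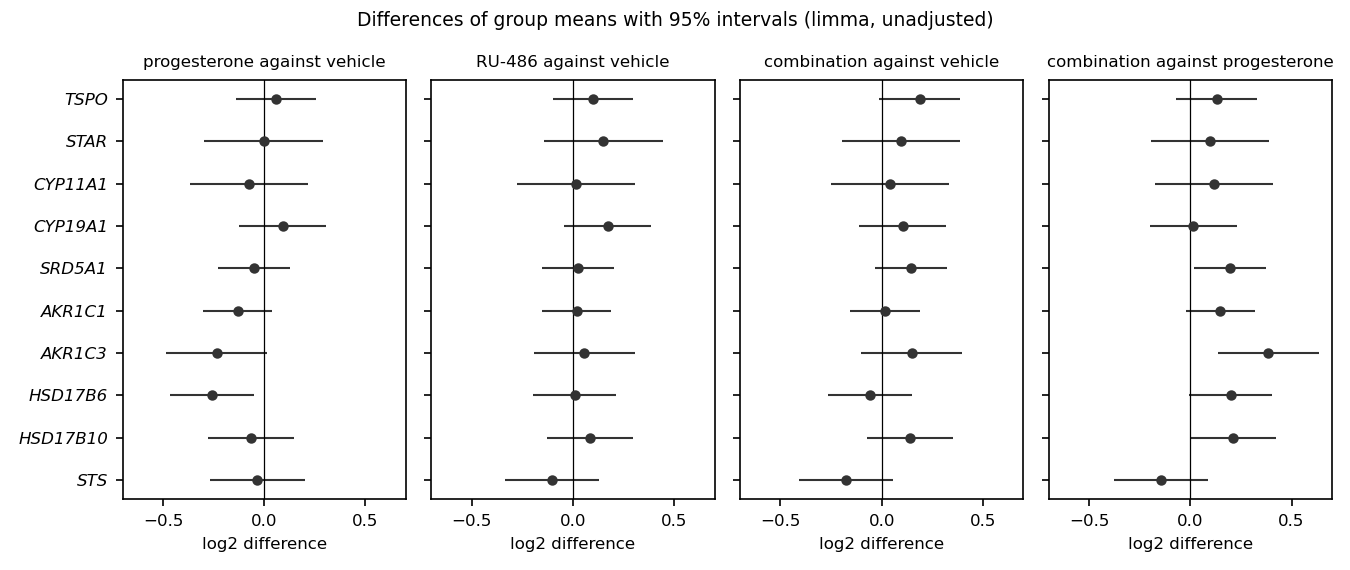
Log2 differences of group means (x axis) with unadjusted 95% intervals from limma for the 10 genes (y axis) in 4 comparisons, 2 arrays against 2. Intervals that exclude 0 are those of HSD17B6 for progesterone against vehicle and of AKR1C3 and SRD5A1 for the combination against progesterone. HSD17B6 is in the background range, and none of these genes passed after adjustment.

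The 4 arrays with RU-486 were then set against the 4 without, with progesterone balanced on both sides. Of the 10 genes 9 stood higher, where 62.5% of all genes did, and their median was 0.11 beside 0.03 for all genes. AKR1C3 differed by 0.22 ± 0.07 (SE, 95% interval 0.04 to 0.40, limma adjusted p = 0.427), HSD17B10 by 0.15 ± 0.06, STAR by 0.12 ± 0.09, TSPO by 0.12 ± 0.06 and SRD5A1 by 0.11 ± 0.05. STS stood at -0.12 ± 0.07. Leaving out single arrays moved STAR from 0.04 without progesterone replicate 2 to 0.20 without progesterone replicate 1, and STS from -0.06 without combination replicate 1 to -0.19 without combination replicate 2. None of the 10 genes passed, where 6 genes of the array, or 0.0326%, did, and AKR1C3 was the 1 gene of the 10 with an unadjusted p under 0.05, against 11% of all genes. The arrays of AKR1C1 and HSD17B10 were wholly higher with the drug (4.51% of all genes) and those of STS wholly lower (1.09%). The side without the drug holds the progesterone pair. For AKR1C3 the drug's difference was 0.06 in the absence of progesterone and 0.38 in its presence. It was 0.02 and 0.20 for SRD5A1, 0.02 and 0.15 for AKR1C1, and 0.0085 and 0.20 for HSD17B6. STAR at 0.15 and 0.10 and CYP19A1 at 0.17 and 0.01 went the other way. The gap between the AKR1C1 arrays was thin, with 13.3409 as the lowest array with the drug and 13.3404 as the highest without. Without progesterone replicate 1 the AKR1C3 difference was 0.29 and passed (limma adjusted p = 0.0459), in a fit that called 998 genes, or 5.42%. Without progesterone replicate 2 it was 0.155 and did not pass (limma adjusted p = 0.339).

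For the 4 arrays with progesterone against the 4 without, 3 of the 10 genes stood higher, where 61.2% of all genes did, and their median was -0.03 beside 0.03 over all genes. HSD17B6, in the background range, had the largest difference, -0.16 ± 0.06 (SE, limma adjusted p = 0.722). It was the 1 gene of the 10 at an unadjusted p under 0.05, where 5.03% of all genes were. None passed, as 0% of all genes did. The arrays of 0 genes were wholly higher or lower, where 2.02% and 0.836% of all genes were. The combination against RU-486 gave differences from -0.07 to 0.12 over the 10 genes, 5 of them above 0, where 61.1% of all genes were. None was called, as 0% of all genes were, and 0 of the 10 had an unadjusted p under 0.05, where 4.75% of all genes did (limma). The arrays of TSPO, SRD5A1 and AKR1C3 were wholly higher (33.3% of all genes) and those of 0 genes wholly lower (17.1%).

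Whether RU-486 acted differently with progesterone present was tested by the interaction. Of the 10 values 7 were above 0, where 52.4% of all genes were, and they ran from -0.16 for CYP19A1 to 0.33 for AKR1C3 (95% interval -0.02 to 0.68), and the smallest limma adjusted p was 0.828. None was called, as 0% of all genes were, and 0 of the 10 had an unadjusted p under 0.05 against 5.28% of all genes. Over the 4 groups at once, the F test in limma gave AKR1C3 an unadjusted p of 0.0392 and an adjusted p of 0.639, and HSD17B6 0.0573 and 0.639. It called 0 of the 10 and 0% of all genes, and 1 of the 10 lay under an unadjusted 0.05, where 7.63% of all genes did.

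Over the 10 genes, the unadjusted 95% intervals of fold change reached from 0.714 to 1.24 for progesterone against vehicle, from 0.792 to 1.36 for RU-486 and from 0.753 to 1.32 for the combination. For the 4 genes in the background range these intervals describe the array signal and not the amount of transcript.

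Genes with a profile like that of AKR1C3 were sought among 12743 other genes above background on every array, by the root mean square difference of values centred on each gene's mean over the 8 arrays. The nearest were PINK1, a mitochondrial kinase, at 0.040, FJX1 at 0.041 and CYSTM1 at 0.043 log2 units, where the median gene was at 0.165. Their group means in the order vehicle, progesterone, RU-486 and combination were 8.57, 8.38, 8.57 and 8.72 for PINK1. They were 8.58, 8.40, 8.70 and 8.72 for FJX1 and 9.55, 9.36, 9.59 and 9.65 for CYSTM1. All were lowest with progesterone alone and highest with both steroids. These genes were picked for likeness to AKR1C3 on the same arrays, so that order follows from the choice and is no separate result. AKR1C2 stood at 0.101 and AKR1C1 at 0.103 from AKR1C3, and 8.11% and 8.94% of the compared genes were nearer.

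The wider pathway was read from 11 lists of genes by role, which named 87 genes, of which 75 were measured by a probe set of their own and 65 were not among the 10. None of the 65 was called in any comparison, and 35 had a mean above the background. At an unadjusted p under 0.05 in the F test lay 8 of the 65, or 12.3%, beside 7.63% of all genes. Against vehicle, the unadjusted limit was passed upwards by 5 and downwards by 3 of the 65 after progesterone (6.13% of all genes in both directions together), by 2 and 2 after RU-486 (3.10%), and by 8 and 2 after both (13.2%). For the average RU-486 effect 4 were higher and 2 lower at that limit (11% of all genes), with a median of 0.04 beside 0.03 over all genes.

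Cholesterol supply was well represented, with 10 of 12 measured genes above background. STARD4, a carrier of free cholesterol, had the lowest p of the role: its values were 7.29 and 7.62 in vehicle, 6.92 and 7.29 in progesterone, 6.68 and 6.90 in RU-486, and 6.65 and 6.82 in the combination. The 4 arrays with RU-486 were the lowest, as in 1.09% of all genes, and the average RU-486 effect was -0.52 ± 0.12 (SE, limma adjusted p = 0.336). NPC1, which exports cholesterol from lysosomes, stood at 0.24 ± 0.07 and ACBD3, a TSPO-binding Golgi protein, at -0.19 ± 0.07 for the same effect, neither called. All 6 measured electron donors and cofactor enzymes lay above background, and the 3 with the lowest F test p, CYB5A, POR and H6PD, stood at 0.14, 0.13 and 0.13 for the average RU-486 effect.

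The steroid-forming enzymes were mostly dim, with 1 of 7 measured genes above background, CYP11B1 at 6.95, and this level lay inside the olfactory receptor range. CYP17A1, which opens the way to androgens, was at 5.60 and HSD3B2, which makes progesterone from pregnenolone, at 4.40. Of the ring reductases, SRD5A1 alone of 3 measured genes lay above background, with SRD5A2 at 5.99 and AKR1D1 at 4.65. Among the reductases and oxidases of the AKR1C role 5 of 9 lay above it. RDH16 and DHRS9, oxidases in the background range, had differences of 0.39 and -0.36 after progesterone, in opposite directions.

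In the HSD17B family 5 of 11 measured genes lay above background. HSD17B2, which inactivates estradiol and testosterone, read 5.71 and 5.66 in vehicle, 6.23 and 5.95 in progesterone, 5.91 and 5.80 in RU-486, and 6.16 and 6.02 in the combination. Its 4 arrays with progesterone lay above the 4 without, as in 2.02% of all genes, near the edge of the background. The average progesterone effect was 0.32 without a call, where the smallest limma adjusted p over all genes was 0.722. The F test in limma gave it an adjusted p of 0.639. HSD17B8 stood at 0.34 above vehicle after progesterone at a level of 5.40, and HSD17B12, a bright fatty acid elongation enzyme at 11.02, stood at -0.18 for the average RU-486 effect. Of the HSD11B genes, which interconvert active and inactive glucocorticoids, HSD11B1 was at 4.72 and HSD11B2 at 6.83, both inside the olfactory receptor range. The cofactor enzyme H6PD was at 8.40.

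Of the sulfation genes 7 of 10 lay above background, among them STS. SULT1A1, a phenol sulfotransferase, read 7.24 and 7.22 in vehicle, 7.05 and 7.19 in progesterone, 7.15 and 7.10 in RU-486, and 7.39 and 7.39 in the combination. Both combination arrays were the highest, as in 15.2% of all genes. The steroid sulfotransferases SULT1E1 and SULT2A1 were in the background range, at 3.23 and 4.20. All 5 measured UGT2B genes, which attach glucuronic acid to steroids, were dim, with UGT2B7 at 3.39, UGT2B10 at 3.05 and UGT2B17 at 3.02. Of the hydroxylating enzymes 2 of 7 lay above background, and CYP27A1, which hydroxylates the cholesterol side chain, stood at 0.18 ± 0.05 (SE) for the average RU-486 effect at a level of 9.61. CYP7B1 at 6.03 and CYP1A1 at 5.58 were in the background range. Of the regulators of steroid-making genes 4 of 5 passed the background limit. They ran from NR5A1, the master factor of the adrenal and gonads, at 6.42 and NR0B2 at 6.46 up to GATA6 at 9.02. NR5A1 and NR0B2 lie inside the olfactory receptor range, and NR5A2 was at 5.29.

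**Figure D4:**
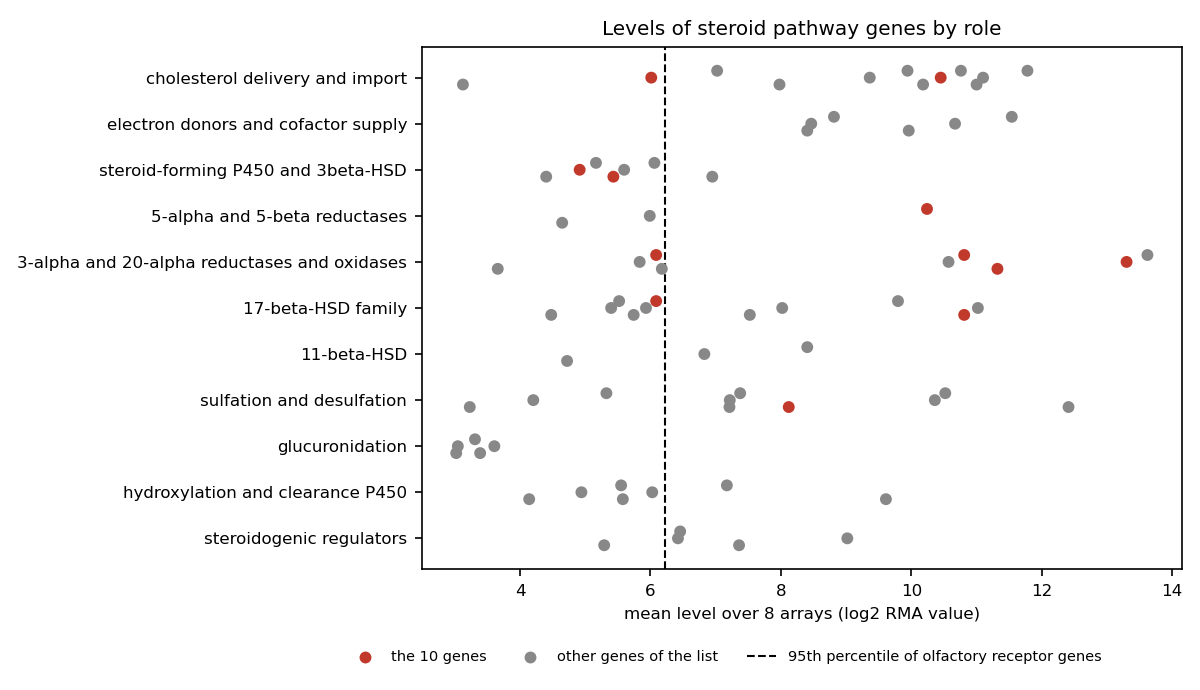
Mean log2 level over 8 arrays (x axis) of the 75 measured steroid pathway genes, by role on the y axis, with the 10 genes in red, other genes in grey and the 95th percentile of olfactory receptor genes at 6.22 as a dashed line. Cholesterol supply (10 of 12) and electron donors (6 of 6) lie mostly to the right of the line, and steroid-forming enzymes (1 of 7) and glucuronidation enzymes (0 of 5) mostly to the left; genes with several roles appear in each.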

How the data were processed

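Total RNA of 8 U373 samples, 2 in each of 4 groups taken from the sample titles, was measured on whole-transcript arrays. The authors deposited log2 expression values for 33297 probe sets. The software named per the submitters' processing notes is oligo, RMA and limma, with versions and settings not given in the sources used here. RMA corrects background, equalises distributions between arrays and summarises probes, so a shift shared by most genes is reduced and differences of dim genes are compressed. A shared shift was still left in the values used. For the combination against vehicle the median difference over all genes was 0.07, with 67.5% of genes above 0. For arrays the number of arrays limits the precision.

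The platform annotation names 1 gene symbol for 19460 probe sets, several for 1754 and none for 12083. The first kind were reduced to the one with the highest mean per gene, giving 18417 genes. All 10 gene identifiers matched RefSeq (GRCh38.p14, used for names and promoter sequences only). No probe sequences, coordinates of probe sets or proteins were used here.

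A model of 4 group means was fitted to all 8 arrays (limma 3.58.1 under R 4.3.3, functions lmFit and eBayes, 4 residual degrees of freedom), with 8 contrasts and an F test over the groups, and p-values were adjusted by Benjamini-Hochberg over all genes within a contrast. The procedure was tested on simulated data. The 10 genes and all lists were chosen with earlier results of these data known. Genes named beside the 10 are AKR1C2 and AKR1C4, up to 3 per pathway list with the smallest F p, the brightest and dimmest marker of each list, and the 3 nearest profiles. NR5A1, VIM and the further dim astrocyte markers were named after their values were seen. Alternatives were a replicate block, leaving out each array, a filter on dim genes, quantile normalization, median centring, the mean over probe sets, array weights, a variance trend, and fits of only the groups compared.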

Additional observations from a re-analysis of the deposited data

How the results depend on the processing

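Of 140 recounts of called genes among the 10 (8 contrasts and the F test under each alternative), 2 gave a call: without progesterone replicate 1, AKR1C3 passed for the combination against progesterone and for the average RU-486 effect, so these counts ran from 0 to 1 when single arrays were left out. The count above background was 10 with the median of the olfactory receptor genes as the limit and otherwise 6. The counts with both progesterone arrays lowest were 5, 4 and 3 with quantile normalization, median centring and the mean over probe sets, alternatives chosen after seeing the data, as was the recomputation of single genes for progesterone against vehicle and the combination against progesterone.

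Of 760 recomputed differences of single genes in 5 contrasts, 725 kept direction and side of the threshold, 2 (AKR1C3) became calls and 33, none of them called, changed sign. Quantile normalization gave -0.049 for CYP19A1 and 0.012 for HSD17B10 in the average progesterone effect, -0.030 for CYP11A1 in the combination against vehicle, and -0.0051 for CYP19A1 and 0.0053 for STS in progesterone against vehicle. Median centring gave 0.0016 for HSD17B10 in the average progesterone effect and 0.0043 for STAR in progesterone against vehicle. When single arrays were left out, the average progesterone effect ran from -0.11 to 0.050 for STAR, -0.10 to 0.051 for CYP11A1, -0.026 to 0.050 for CYP19A1, -0.047 to 0.036 for HSD17B10 and -0.12 to 0.0098 for STS. Progesterone against vehicle ran from -0.0045 to 0.12 for TSPO, -0.16 to 0.16 for STAR, -0.23 to 0.077 for CYP11A1 and -0.15 to 0.015 for HSD17B10. The combination against progesterone ran from -0.061 to 0.26 for STAR, -0.036 to 0.27 for CYP11A1 and -0.039 to 0.067 for CYP19A1. CYP11A1 ran from -0.0094 to 0.14 for the average RU-486 effect and from -0.053 to 0.14 for the combination against vehicle. The cause was not tested.

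With the replicate number as a block, 0 of the 10 genes were called in any comparison and AKR1C3 had a limma adjusted p of 0.177 for the average RU-486 effect. The count of all genes called in that effect was 6 with the block and 6 without it, and for the combination against vehicle 1 with the block and 0 without it. The count for the average RU-486 effect was 1 without RU-486 replicate 1, and 0 without RU-486 replicate 2 or without either vehicle or combination array. Differences between replicates 1 and 2 correlated between groups, across genes, from 0.197 to 0.511, and the labels do not say that the numbers pair samples.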
